A study of Homo sapiens with 18 samples.

Results

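The 26 integrin and 12 laminin subunit genes were followed in H1650 and PC9, human cell lines from lung adenocarcinomas that carry activating mutations of EGFR. They were found by matching the gene identifiers of the count tables to the protein-coding ITGA, ITGB, LAMA, LAMB and LAMC symbols. All 38 had a row in both tables, among 60603 rows in H1650 and 60649 in PC9, and comprised 18 integrin α, 8 integrin β, 5 laminin α, 4 laminin β and 3 laminin γ chains. Poly-A selected RNA had been sequenced from 3 groups of 3 libraries in each line. The first group, BrM control, is the brain metastatic derivative of the line without S100A9 inhibition. The second, Tr-BrM control, is labelled Tr-BrM and likewise carries no inhibition, and the third, Tr-BrM S100A9-inh, is Tr-BrM with S100A9 inhibited. What Tr stands for, how S100A9 was inhibited, and whether a group is 1 clone or several cultures is not given in the sources used here. P-values therefore rest on the spread among these libraries alone, and that spread may be technical.

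Integrins are cell surface receptors made of 1 α and 1 β chain, which bind extracellular matrix outside the cell and the actin or keratin cytoskeleton inside it. Laminins are secreted trimers of 1 α, 1 β and 1 γ chain and the main adhesive proteins of basement membranes. Epithelial cells make trimers with the α3 chain, which anchor hemidesmosomes through integrin α6β4, and trimers of the α5 chain with β1 or β2 and γ1. In the brain, tumor cells meet laminins in the basement membrane of blood vessels, and the β1 integrins are known as receptors through which they spread along it.

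Depth was 17.4 to 27.1 M counts per library for H1650 and 18.2 to 21.7 M for PC9, of which the 38 genes took 0.748 to 0.962% and 0.533 to 0.603%. The unit of level is CPM, a library's counts scaled to its TMM-adjusted depth, and changes are log2 fold changes ± SE of 3 libraries against 3. A gene is said to have risen or fallen where edgeR's quasi-likelihood test, adjusted over all tested genes, gave a p below 0.05. These words compare separate groups and imply no order in time. S100A9, the named target, ran in H1650 at 207 ± 9.0, 307 ± 25 and 96.2 ± 8.5 CPM (mean ± SD, n = 3) and in PC9 at 122 ± 4.3, 745 ± 12 and 33.3 ± 2.6 CPM, in the order BrM control, Tr-BrM control and S100A9-inh, and was lowest under S100A9-inh in both lines. Of 9 epithelial markers, 6 stood above 1 CPM in every group, with KRT8, a simple epithelial keratin, highest, while the lung lineage genes NKX2-1, NAPSA and SFTPB stayed below 1 CPM. The 9 summed to 10787 to 10857, 9041 to 9372 and 8808 to 9154 CPM in H1650 and to 26079 to 26549, 19992 to 20521 and 21226 to 23379 CPM in PC9. Of 6 tested, 1 rose and 4 fell in the H1650 Tr-BrM controls (all genes 32.2% higher and 31.7% lower). In those of PC9 none rose and 5 fell (all genes 29.6% higher and 30.3% lower). Replicate 1 of PC9 S100A9-inh stood apart from replicates 2 and 3. Without it the number of subunits called went from 20 to 21 against the Tr-BrM control and from 22 to 24 against the BrM control, and within the line 1 call, that of ITGA7, was lost.

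In both lines ITGA5, the fibronectin receptor chain, and LAMA3, the laminin α3 chain, fell in the Tr-BrM controls and rose under S100A9-inh against them. ITGB1, ITGB4 and LAMA5 rose in the Tr-BrM controls of H1650 and fell in those of PC9. Of the 38 genes, 33 passed the filter on low counts in H1650 and 28 in PC9. In H1650, 15 rose and 11 fell in Tr-BrM control against BrM control, and 26 of 33 passing compares with 63.9% of all tested genes (32.2% higher and 31.7% lower). Under S100A9-inh against Tr-BrM control 12 rose and 6 fell, 18 of 33 against a background of 29.2% (15.4% higher and 13.8% lower). With scaling by library size alone, 40.8% of the genes called in that comparison were higher, against 52.8% with TMM. Against BrM control 15 rose and 8 fell under S100A9-inh, with a background of 63.6% (32.5% higher and 31.2% lower). In PC9 the Tr-BrM control had 8 subunits higher and 15 lower than BrM control, 23 of 28 against 59.9% of all tested genes (29.6% higher and 30.3% lower). Under S100A9-inh 13 rose and 7 fell against Tr-BrM control, where the background was 52.5% (26.3% higher and 26.1% lower), and 8 rose and 14 fell against BrM control, where it was 46.3% (22.7% higher and 23.6% lower). The libraries of the groups did not overlap for 26, 22 and 22 of 33 subunits in H1650, where all tested genes gave 67.5%, 39.2% and 66.7%, and for 24, 21 and 22 of 28 in PC9, where they gave 65.7%, 56.3% and 52.9%. Called changes of at least 1 on the log2 scale were found for 9, 2 and 7 subunits in H1650, against 20.6%, 2.04% and 19.5% of all genes, and for 8, 7 and 4 in PC9, against 12.7%, 7.81% and 7.4%. The median absolute log2 fold change of the tested subunits was 0.61, 0.31 and 0.43 in H1650, against 0.38, 0.16 and 0.37 over all tested genes, and 0.63, 0.37 and 0.59 in PC9, against 0.36, 0.29 and 0.25. The 3 comparisons of a line share libraries, so their counts are not independent of each other.

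**Figure D1:**
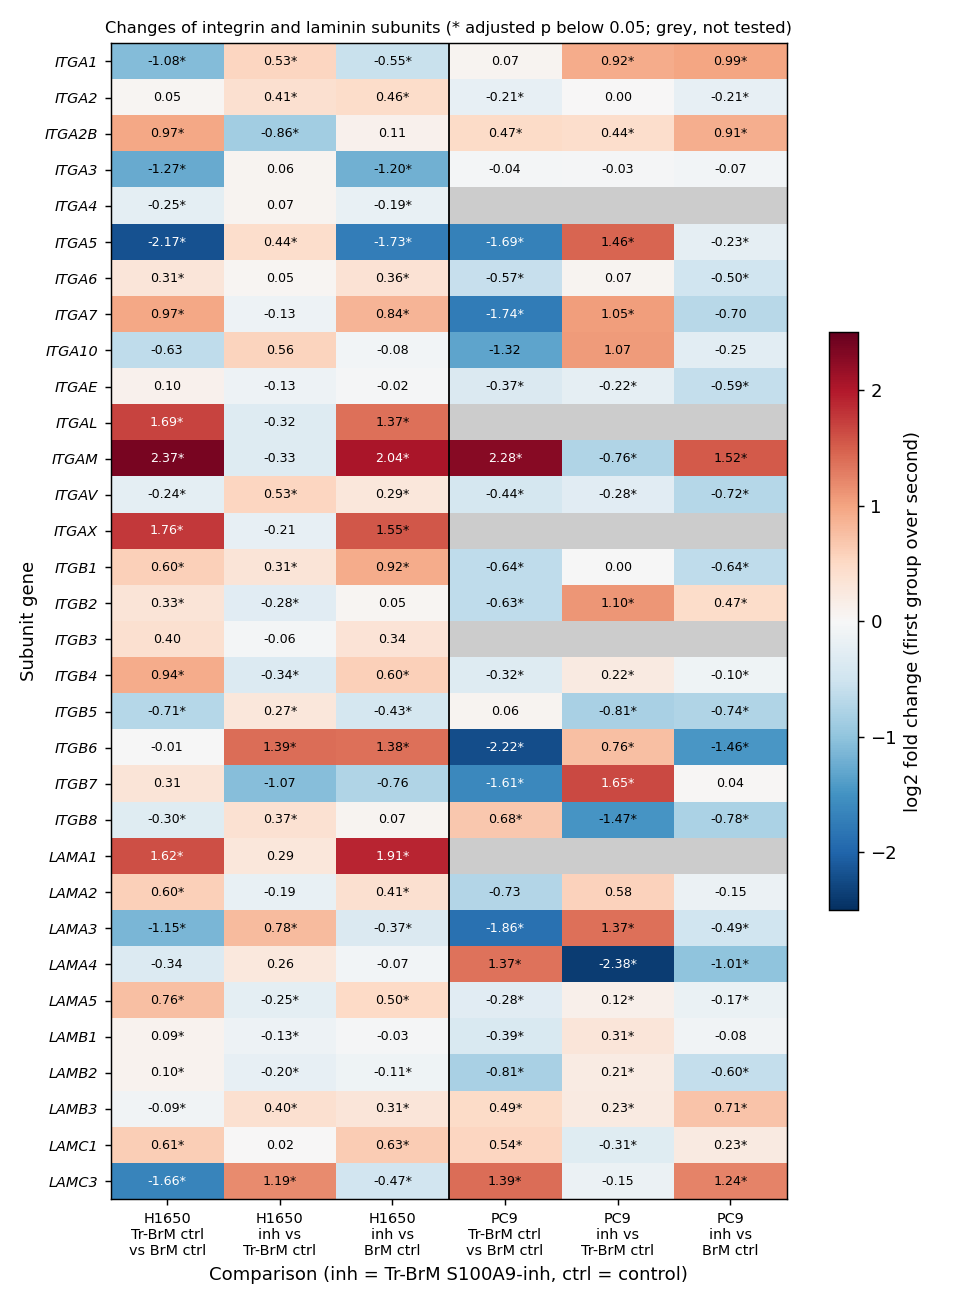
Log2 fold change of the tested subunits (rows) in the 3 comparisons of H1650 (left) and PC9 (right), with red for higher and blue for lower in the first group, an asterisk for an adjusted p below 0.05 and grey for genes that were not tested. ITGA5 and LAMA3 are blue in the Tr-BrM control columns of both lines and red in the S100A9-inh columns beside them. By contrast, ITGB1, ITGB4 and LAMA5 have opposite colours in the 2 lines in the columns of comparisons with BrM control.

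LAMA3, a chain of the laminin that anchors epithelia, fell in both lines' Tr-BrM controls and rose under S100A9-inh in both. LAMA3 (ENSG00000053747, chromosome 18, 23689443 to 23956222, forward strand of GRCh38) encodes the α3 chain. The H1650 level was 420.4, 423 and 421 CPM in BrM control libraries, 189, 189 and 191 CPM in Tr-BrM control libraries and 324, 323 and 334 CPM with S100A9-inh. The 3 groups did not overlap: every Tr-BrM control library lay below every S100A9-inh library, and these below every BrM control. LAMA3 fell in Tr-BrM control against BrM control (-1.15 ± 0.030, adjusted p = 3.0e-23), rose under S100A9-inh against Tr-BrM control (0.78 ± 0.030, adjusted p = 1.4e-17) and stayed below BrM control (-0.37 ± 0.029, adjusted p = 5.1e-12). PC9 gave 109, 113 and 107 CPM in BrM control libraries, 28.3, 30.9 and 31.1 CPM in Tr-BrM control libraries and 76.1, 79.9 and 77.2 CPM with S100A9-inh. The order of the groups was the same, again with no overlap, with a fall of -1.86 ± 0.053 (adjusted p = 4.5e-23), a rise of 1.37 ± 0.054 (adjusted p = 4.2e-19) and a remaining difference of -0.49 ± 0.048 (adjusted p = 6.1e-10) from BrM control. The fall in Tr-BrM control and the rise under S100A9-inh were both larger in PC9, by -0.71 ± 0.057 (adjusted p = 2.9e-14) and 0.59 ± 0.058 (adjusted p = 3.4e-11) as the PC9 change minus the H1650 change.

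LAMB3, the β3 chain, is given here as a partner of α3, a choice made after its values were seen. LAMB3 rose under S100A9-inh in both lines, from 379 ± 6.0 to 501 ± 4.9 CPM in H1650 (0.40 ± 0.029, adjusted p = 1.2e-11) and from 311 ± 7.4 to 363 ± 23 CPM in PC9 (0.23 ± 0.041, adjusted p = 2.7e-05). In Tr-BrM control against BrM control it rose in PC9 (0.49 ± 0.042, adjusted p = 1.6e-11) and was slightly lower in H1650 (-0.09 ± 0.030, adjusted p = 0.0085), a call lost with scaling by library size alone and without replicate 2 of the BrM controls.

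LAMA5, the α5 chain of adult epithelial basement membranes, had the highest level per kilobase among the laminins in each PC9 group. Per kilobase of exon, LAMA5 stood at 93.8 ± 1.5 CPM per kb in the PC9 BrM controls, with LAMB3 next among the laminins at 47.3 ± 1.4. In the H1650 BrM controls LAMB3 was highest at 86.2 ± 2.0, and LAMC1, LAMB1 and LAMA5 lay between 50.9 and 53.0 CPM per kb. LAMA5 (ENSG00000130702, chromosome 20, 62307955 to 62367312, reverse strand) gave 719.6, 738 and 723 CPM in BrM control libraries, 1167, 1248 and 1269 CPM in Tr-BrM control libraries and 1016, 1043 and 1032 CPM with S100A9-inh in H1650. The BrM controls were lowest and the Tr-BrM controls highest, without overlap, and the change was 0.76 ± 0.031 (adjusted p = 1.1e-18) in Tr-BrM control and -0.25 ± 0.030 (adjusted p = 1.6e-07) under S100A9-inh against it. In PC9 the levels were 1366, 1329 and 1328 CPM in BrM control libraries, 1148, 1072 and 1085 CPM in Tr-BrM control libraries and 1270.1, 1185 and 1129 CPM with S100A9-inh. The Tr-BrM controls were lower than the BrM controls (-0.28 ± 0.037, adjusted p = 8.9e-08), while 1 Tr-BrM control library at 1148 CPM lay above an S100A9-inh library at 1129 CPM. The rise under S100A9-inh (0.12 ± 0.037, adjusted p = 0.0085) was lost without replicate 2 or replicate 3 of the Tr-BrM controls.

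LAMC1, the γ1 chain shared by most laminins, rose in both lines' Tr-BrM controls. Its H1650 levels were 447, 448 and 441 CPM in BrM control libraries, 666, 676 and 699 CPM in Tr-BrM control libraries and 695, 691 and 680.3 CPM with S100A9-inh. Both Tr-BrM groups lay above the BrM controls and overlapped each other (0.61 ± 0.029, adjusted p = 4.2e-17 in Tr-BrM control, 0.02 ± 0.028, adjusted p = 0.69 under S100A9-inh against it). In PC9 LAMC1 ran at 220.1, 232 and 222 CPM in BrM control libraries, 326, 324 and 329 CPM in Tr-BrM control libraries and 272, 265 and 252 CPM with S100A9-inh. It rose in Tr-BrM control (0.54 ± 0.038, adjusted p = 1.9e-13), fell under S100A9-inh (-0.31 ± 0.038, adjusted p = 3.3e-08) and remained above BrM control (0.23 ± 0.038, adjusted p = 1.0e-05), with no overlap between groups.

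LAMB1, the β1 chain, moved in opposite directions in the 2 lines, with a difference of -0.49 ± 0.047 (adjusted p = 6.7e-12) in Tr-BrM control. The H1650 level was 427, 439 and 428 CPM in BrM control libraries, 466, 454 and 462 CPM in Tr-BrM control libraries and 418, 418 and 429.6 CPM with S100A9-inh. The Tr-BrM controls were above all others, by 0.09 ± 0.029 (adjusted p = 0.006) over the BrM controls, and S100A9-inh lay lower than Tr-BrM control (-0.13 ± 0.029, adjusted p = 0.0012). In PC9, LAMB1 was at 273, 266 and 271 CPM in BrM control libraries, 211, 206 and 202 CPM in Tr-BrM control libraries and 262, 255 and 249 CPM with S100A9-inh. It fell in Tr-BrM control (-0.39 ± 0.037, adjusted p = 1.7e-10) and rose under S100A9-inh (0.31 ± 0.037, adjusted p = 3.0e-08), and its difference from BrM control was then -0.08 ± 0.037 (adjusted p = 0.072). LAMB2, the β2 chain, followed the same directions with means of 226 ± 4.2, 242 ± 5.2 and 209.8 ± 5.1 CPM for H1650 and 159 ± 4.3, 90.7 ± 3.9 and 105 ± 7.0 CPM for PC9. Its fall in the PC9 Tr-BrM controls (-0.81 ± 0.048, adjusted p = 3.9e-15) was the larger of its changes, and its H1650 rise (0.10 ± 0.032, adjusted p = 0.0094) was lost without the filter on low counts and without replicate 3 of the BrM controls.

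**Figure D2:**
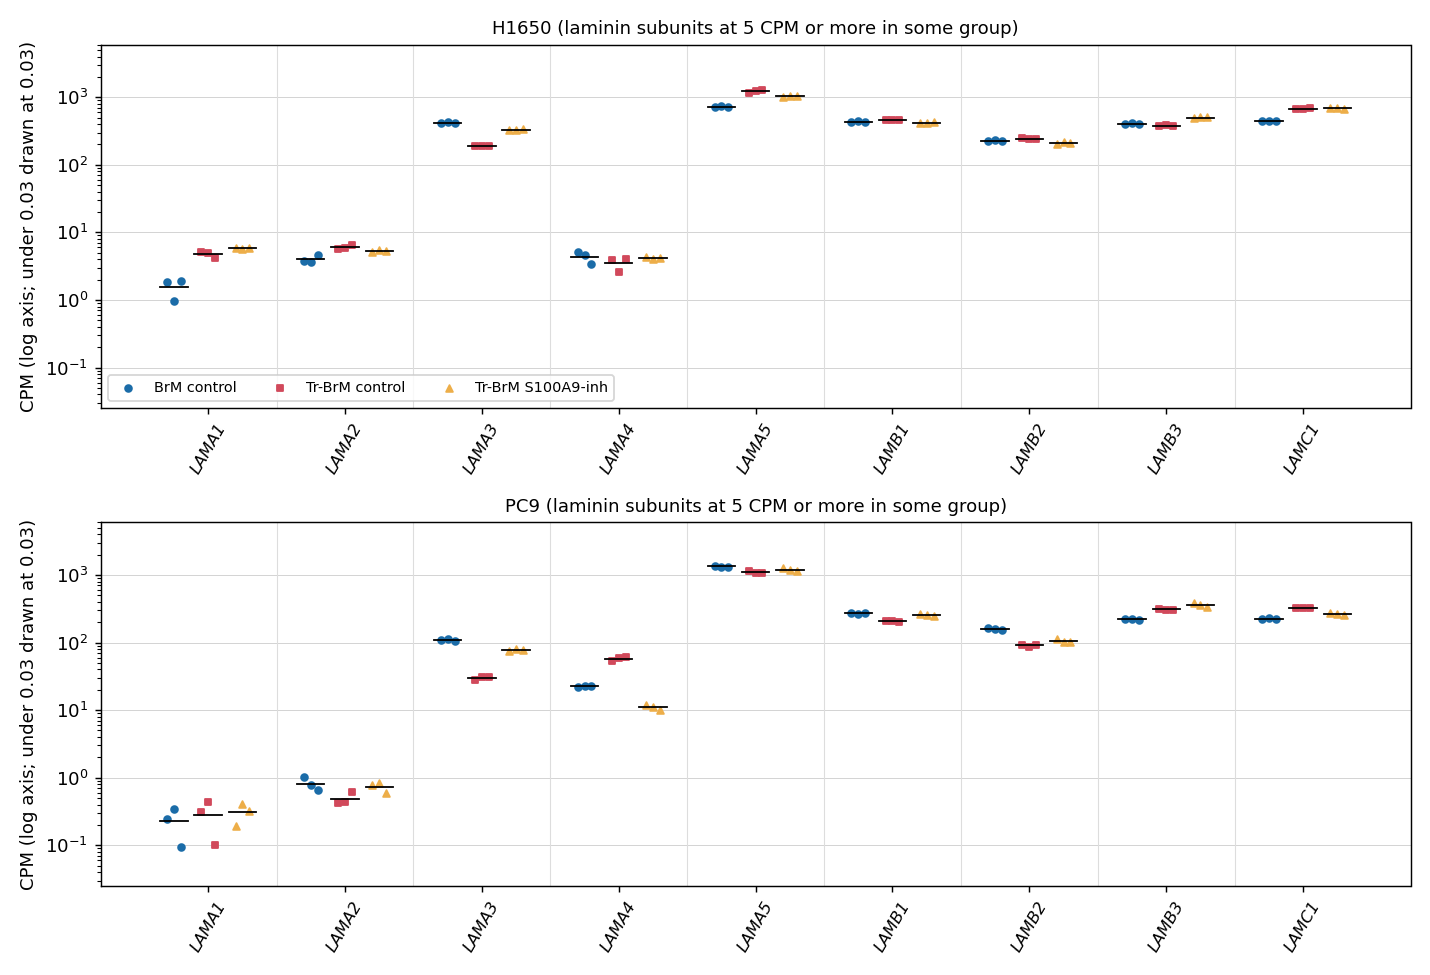
CPM of each library on a log axis for 9 laminin subunits at 5 CPM or more in some group, H1650 above and PC9 below, with points for libraries, black bars for group means and colours for the 3 groups. LAMA3 dips in both lines' Tr-BrM controls, and LAMA4 peaks in those of PC9 at 54.2 to 60.1 CPM.

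LAMA4, the α4 chain found in vessel and muscle basement membranes, had the largest fall under S100A9-inh among the 28 tested subunits of PC9. Its levels there were 22.3, 22.8 and 22.5 CPM in BrM control libraries, 54.2, 59.8 and 60.1 CPM in Tr-BrM control libraries and 12.05, 11.3 and 10.2 CPM with S100A9-inh. Every Tr-BrM control was above every BrM control, and every S100A9-inh library was below both. LAMA4 rose in Tr-BrM control (1.37 ± 0.068, adjusted p = 3.9e-17), fell under S100A9-inh (-2.38 ± 0.075, adjusted p = 1.1e-21) and ended below BrM control (-1.01 ± 0.081, adjusted p = 9.3e-12). In H1650 it was low, at 4.36 ± 0.88, 3.56 ± 0.80 and 4.19 ± 0.16 CPM, and its change in Tr-BrM control was -0.34 ± 0.17 (adjusted p = 0.083). The lines differed by 1.71 ± 0.17 (adjusted p = 1.6e-11) in that comparison and by -2.64 ± 0.17 (adjusted p = 2.1e-16) under S100A9-inh. Summed over 6 endothelial markers, PC9 libraries held 22.9 to 26.6 CPM, 40.7 to 41.4 CPM and 23.6 to 28.4 CPM in the group order, most of it CDH5. CDH5 averaged 23.6, 31.7 and 21.7 CPM. Of those markers KDR and TEK had no count in the BrM controls and KDR and CLDN5 none in the Tr-BrM controls, while each had counts under S100A9-inh. Of the 3 markers tested, 3 rose in Tr-BrM control (all genes 29.6% higher). Under S100A9-inh against it none rose and 2 fell (all genes 26.3% higher and 26.1% lower). The part of these markers in the LAMA4 result was not tested.

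LAMA1, the α1 chain of early embryonic basement membranes, was tested in H1650 only. It gave 1.85, 0.955 and 1.89 CPM in BrM control libraries, 5.04, 4.94 and 4.23 CPM in Tr-BrM control libraries and 5.91, 5.65 and 5.83 CPM with S100A9-inh. Both Tr-BrM groups lay above the BrM controls, by 1.62 ± 0.18 (adjusted p = 1.0e-08) and 1.91 ± 0.18 (adjusted p = 1.7e-10), with 0.29 ± 0.14 (adjusted p = 0.13) between them. An antisense gene shares 1641 of the 15872 exon bases of LAMA1, and without knowledge of strand their reads cannot be told apart. LAMA2, the α2 chain of muscle and nerve, averaged 3.996 ± 0.49, 6.03 ± 0.38 and 5.27 ± 0.17 CPM in H1650 and rose in Tr-BrM control (0.60 ± 0.13, adjusted p = 1.7e-04). Over 7 fibroblast markers, led by COL3A1, H1650 libraries summed to 23.7 to 24.2, 160 to 181 and 183 to 191 CPM in the group order, and their part in the LAMA1 and LAMA2 results was not tested.

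LAMC3, the γ3 chain, was scarce and moved in opposite directions. H1650 means were 3.06 ± 0.38, 0.959 ± 0.11 and 2.21 ± 0.36 CPM, with a fall of -1.66 ± 0.22 (adjusted p = 1.3e-07) in Tr-BrM control and a rise of 1.19 ± 0.22 (adjusted p = 1.2e-04) under S100A9-inh. PC9 means were 1.48 ± 0.19, 3.87 ± 0.59 and 3.47 ± 0.52 CPM, with a rise of 1.39 ± 0.21 (adjusted p = 1.0e-06) in Tr-BrM control and a difference of -0.15 ± 0.18 (adjusted p = 0.50) under S100A9-inh. Against BrM control, the H1650 level under S100A9-inh was lower (-0.47 ± 0.18, adjusted p = 0.028), a call lost with DESeq2 (adjusted p = 0.14) and in the quasi-likelihood fits without replicate 2 of the BrM controls (adjusted p = 0.14) or replicate 3 of S100A9-inh (adjusted p = 0.13). LAMB4 stayed below the filter in both lines.

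Ratios between chains, computed within each library from levels per kilobase, set these changes side by side and are given as a description. They are to be compared within a line, because the gene versions of LAMA3, LAMB1, ITGB1 and ITGA6 differ between the tables of the lines. LAMA3 to LAMA5 was 0.564 ± 0.0054, 0.151 ± 0.0060 and 0.309 ± 0.0067 in H1650 and 0.0795 ± 0.0027, 0.0267 ± 0.0023 and 0.0635 ± 0.0045 in PC9 (mean ± SD, n = 3, in the group order). LAMA3 to LAMA5 was thus lowest in both lines' Tr-BrM controls, with no overlap between groups. The length used for LAMA3 is the union of all its exons, 14678 bases. Which of its transcripts were made was not measured, and the size of the ratio depends on it. LAMB3 to LAMB1 was 1.63 ± 0.019, 1.43 ± 0.042 and 2.06 ± 0.032 in H1650 and 1.42 ± 0.046, 2.62 ± 0.033 and 2.47 ± 0.097 in PC9.

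**Figure D3:**
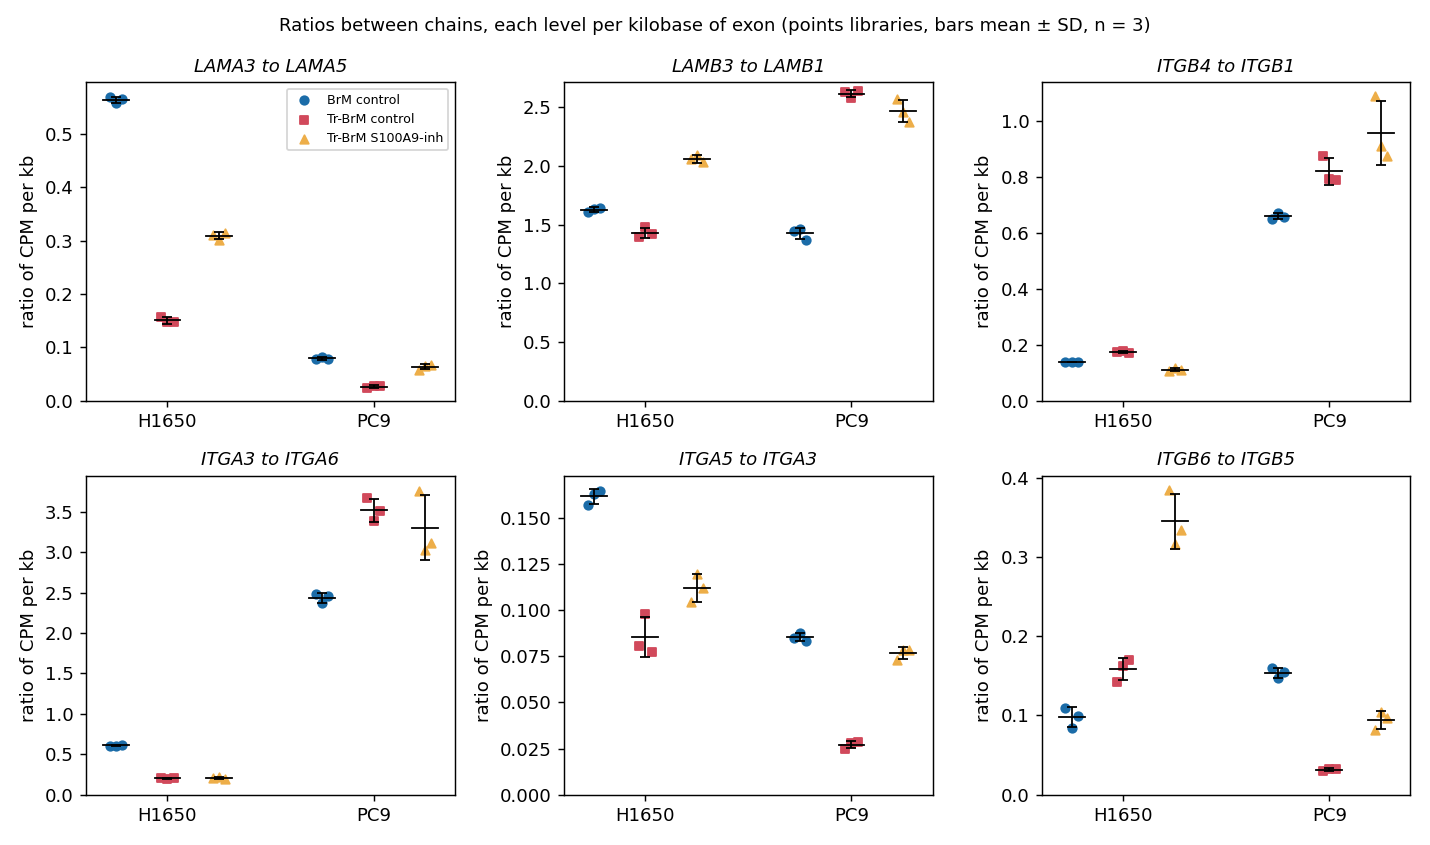
Ratios of CPM per kilobase between pairs of chains in each library (points), with group means and SD (bars, n = 3), H1650 on the left and PC9 on the right of each panel. LAMA3 to LAMA5 is lowest in both lines' Tr-BrM controls, and ITGB4 to ITGB1 lies at 0.11 to 0.17 in H1650 group means and at 0.66 to 0.96 in PC9. The gene version of ITGB1 differs between the tables of the lines, so the ratios are to be compared within a line.

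Among the laminin receptors, ITGB1 (ENSG00000150093, chromosome 10, 32900319 to 33005792, reverse strand), the β1 chain shared by most matrix integrins, had the highest level per kilobase of all subunits in each H1650 group, from 257 ± 0.53 to 486 ± 5.6 CPM per kb. In H1650 it stood at 1543, 1542 and 1548 CPM in BrM control libraries, 2364, 2327 and 2349.6 CPM in Tr-BrM control libraries and 2935, 2881 and 2942 CPM with S100A9-inh. The groups rose in that order without overlap, by 0.60 ± 0.026 (adjusted p = 3.4e-18) and then by 0.31 ± 0.026 (adjusted p = 1.0e-10). PC9 had 639.7, 644 and 649.6 CPM in BrM control libraries, 402, 422 and 419.7 CPM in Tr-BrM control libraries and 395, 428 and 420.3 CPM with S100A9-inh. There the BrM controls were highest and the Tr-BrM groups overlapped, with -0.64 ± 0.036 (adjusted p = 9.2e-16) in Tr-BrM control and 0.00 ± 0.036 (adjusted p = 0.99) under S100A9-inh. The change in Tr-BrM control differed between the lines by -1.24 ± 0.043 (adjusted p = 7.5e-26).

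ITGA3, the α3 integrin chain that pairs with β1 to bind the α3 and α5 laminins, fell in H1650. There it held 850.3, 861 and 852 CPM in BrM control libraries, 350.1, 350.4 and 366 CPM in Tr-BrM control libraries and 371, 378 and 366 CPM with S100A9-inh. All BrM controls were more than 2 times above every other library, and the Tr-BrM groups lay close together (-1.27 ± 0.029, adjusted p = 2.1e-24 in Tr-BrM control, 0.06 ± 0.029, adjusted p = 0.11 under S100A9-inh against it). In PC9 the level was 821, 796 and 793 CPM in BrM control libraries, 799, 757 and 789 CPM in Tr-BrM control libraries and 812, 753 and 726 CPM with S100A9-inh, and the groups overlapped in each comparison. None of the PC9 changes passed (-0.04, -0.03 and -0.07). Without replicate 1 of S100A9-inh the last 2 passed at -0.08 (adjusted p = 0.012) and -0.12 (adjusted p = 1.8e-04).

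ITGA6 and ITGB4, the chains of the hemidesmosome receptor α6β4, are described here by a choice made after their values were seen. ITGA6 had means of 936 ± 16, 1162 ± 23 and 1205 ± 35 CPM for H1650 and 220.0 ± 4.4, 148 ± 2.6 and 155 ± 11 CPM for PC9. It rose in the H1650 Tr-BrM controls (0.31 ± 0.029, adjusted p = 1.7e-10) and fell in those of PC9 (-0.57 ± 0.044, adjusted p = 1.4e-12). ITGB4 had means of 240.1 ± 0.87, 459.8 ± 4.8 and 364 ± 12 CPM for H1650 and 479 ± 9.96, 382 ± 12 and 446 ± 36 CPM for PC9. It rose in Tr-BrM control and then fell under S100A9-inh in H1650 (0.94 ± 0.031, adjusted p = 8.2e-21 and -0.34 ± 0.030, adjusted p = 6.9e-10), with the signs reversed in PC9 (-0.32 ± 0.043, adjusted p = 1.1e-07 and 0.22 ± 0.043, adjusted p = 5.8e-05). The PC9 difference between S100A9-inh and BrM control (-0.10 ± 0.042, adjusted p = 0.049) was lost under 9 alternatives, among them DESeq2 and the fit to the 6 libraries of those groups. ITGA3 to ITGA6 per kilobase was 0.609 ± 0.0074, 0.204 ± 0.0066 and 0.206 ± 0.0092 in H1650 and 2.43 ± 0.060, 3.52 ± 0.14 and 3.30 ± 0.40 in PC9. ITGA7, the muscle laminin receptor, stayed between 2.65 and 5.18 CPM in H1650 group means and between 0.355 and 1.20 CPM in PC9. It rose in the H1650 Tr-BrM controls (0.97 ± 0.16, adjusted p = 4.4e-06) and fell in those of PC9 (-1.74 ± 0.39, adjusted p = 3.4e-04). Its PC9 rise under S100A9-inh (1.05 ± 0.43, adjusted p = 0.04) was 0.80 (adjusted p = 0.20) without replicate 1 and was also lost with DESeq2, without a filter on low counts, and without any 1 of the Tr-BrM controls or replicate 3 of S100A9-inh.

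Of the collagen receptors, ITGA1, the α1 chain that binds basement membrane collagen (ENSG00000213949, chromosome 5, 52787896 to 52959210, forward strand), had in H1650 72.9, 73.2 and 72.0 CPM in BrM control libraries, 34.6, 34.6 and 34.2 CPM in Tr-BrM control libraries and 51.0, 47.2 and 50.8 CPM with S100A9-inh. The groups did not overlap, and ITGA1 fell in Tr-BrM control (-1.08 ± 0.046, adjusted p = 4.1e-18) and rose partway under S100A9-inh (0.53 ± 0.047, adjusted p = 6.3e-10), remaining below BrM control (-0.55 ± 0.043, adjusted p = 5.4e-12). The PC9 levels were 4.56, 6.71 and 6.13 CPM in BrM control libraries, 5.73, 6.47 and 6.03 CPM in Tr-BrM control libraries and 10.3, 11.5 and 12.8 CPM with S100A9-inh. BrM and Tr-BrM controls overlapped (0.07 ± 0.14, adjusted p = 0.70), and all S100A9-inh libraries were above both (0.92 ± 0.13, adjusted p = 4.8e-07). The change in Tr-BrM control differed between the lines by 1.14 ± 0.14 (adjusted p = 1.4e-09). PELO, a gene on the same strand inside ITGA1, shares 475 of its 18566 exon bases, and a pseudogene there another 571. ITGA2, the other collagen receptor chain of epithelia, had means of 140.4 ± 5.2, 146 ± 7.3 and 193 ± 12 CPM in H1650, where it rose under S100A9-inh (0.41 ± 0.042, adjusted p = 9.1e-09), and 588 ± 5.3, 507 ± 25 and 509 ± 29 CPM in PC9. There it fell in Tr-BrM control (-0.21 ± 0.040, adjusted p = 2.9e-05), and the S100A9-inh change was 0.00 ± 0.040 (adjusted p = 0.93). ITGA10 averaged under 1 CPM in every group and passed in no comparison, and ITGA11 was not tested.

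Of the receptors for fibronectin and the RGD motif, ITGA5 (ENSG00000161638, chromosome 12, 54395261 to 54419460, reverse strand), the α5 chain of the main fibronectin receptor, had the largest fall in the H1650 Tr-BrM controls. H1650 had 103, 109 and 108 CPM in BrM control libraries, 21.8, 26.6 and 21.9 CPM in Tr-BrM control libraries and 30.0, 34.9 and 31.6 CPM with S100A9-inh. No group overlapped another: BrM controls were highest, S100A9-inh next and Tr-BrM controls lowest. ITGA5 fell in Tr-BrM control (-2.17 ± 0.060, adjusted p = 1.4e-22) and rose under S100A9-inh (0.44 ± 0.067, adjusted p = 7.9e-06), but remained below BrM control (-1.73 ± 0.057, adjusted p = 7.2e-21). In PC9 it stood at 53.8, 53.9 and 51.0 CPM in BrM control libraries, 15.3, 16.5 and 17.4 CPM in Tr-BrM control libraries and 45.8, 45.6 and 44.0 CPM with S100A9-inh. The order was the same, with -1.69 ± 0.066 (adjusted p = 1.3e-19) in Tr-BrM control and 1.46 ± 0.067 (adjusted p = 1.5e-17) under S100A9-inh, which brought it to -0.23 ± 0.059 (adjusted p = 0.0019) from BrM control. The rise under S100A9-inh was larger in PC9 by 1.02 ± 0.099 (adjusted p = 2.5e-11), and the fall in Tr-BrM control was smaller there by 0.48 ± 0.096 (adjusted p = 3.7e-05).

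ITGAV, the αv chain that pairs with the β3, β5, β6 and β8 chains, fell in both lines' Tr-BrM controls and went opposite ways under S100A9-inh against them. H1650 had 327, 325 and 313 CPM in BrM control libraries, 265, 277 and 277 CPM in Tr-BrM control libraries and 408, 386 and 388 CPM with S100A9-inh. Its S100A9-inh libraries were the highest (-0.24 ± 0.032, adjusted p = 2.1e-07 in Tr-BrM control, 0.53 ± 0.032, adjusted p = 1.9e-13 under S100A9-inh). PC9 had 99.2, 102 and 104 CPM in BrM control libraries, 70.9, 77.9 and 75.8 CPM in Tr-BrM control libraries and 58.8, 63.0 and 63.7 CPM with S100A9-inh. Its groups fell in that order without overlap (-0.44 ± 0.049, adjusted p = 5.1e-09, then -0.28 ± 0.051, adjusted p = 3.6e-05). The S100A9-inh change differed between the lines by -0.80 ± 0.058 (adjusted p = 6.0e-15).

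ITGB6, an epithelial partner of αv that activates latent TGF-β, rose under S100A9-inh in both lines. Its H1650 values were 13.8, 10.7 and 13.1 CPM in BrM control libraries, 11.4, 12.6 and 13.3 CPM in Tr-BrM control libraries and 34.8, 31.4 and 31.7 CPM with S100A9-inh. BrM and Tr-BrM controls overlapped (-0.01 ± 0.092, adjusted p = 0.94), and every S100A9-inh library lay above 31 CPM (1.39 ± 0.079, adjusted p = 5.6e-14 against Tr-BrM control). In PC9 the values were 57.7, 52.9 and 54.2 CPM in BrM control libraries, 11.4, 11.9 and 12.2 CPM in Tr-BrM control libraries and 18.6, 21.5 and 19.9 CPM with S100A9-inh. Here the BrM controls were highest and the Tr-BrM controls lowest, without overlap. ITGB6 fell in Tr-BrM control (-2.22 ± 0.074, adjusted p = 2.5e-21), rose under S100A9-inh (0.76 ± 0.082, adjusted p = 3.8e-09) and ended below BrM control (-1.46 ± 0.069, adjusted p = 2.8e-17). A processed transcript on the same strand shares 966 of its 4687 exon bases. Relative to BrM control, the S100A9-inh group was therefore higher in H1650 (1.38 ± 0.080, adjusted p = 4.5e-15) and lower in PC9, a difference of -2.84 ± 0.11 (adjusted p = 9.7e-25) between the lines.

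ITGB8, which also pairs with αv to activate latent TGF-β and is known from brain tissue, changed in opposite directions in the 2 lines in both comparisons with Tr-BrM control. Its H1650 levels were 117, 121 and 110.3 CPM in BrM control libraries, 92.8, 94.5 and 95.2 CPM in Tr-BrM control libraries and 125, 113 and 127 CPM with S100A9-inh. The Tr-BrM controls were lowest (-0.30 ± 0.043, adjusted p = 5.2e-07), with a rise under S100A9-inh (0.37 ± 0.042, adjusted p = 6.3e-08). PC9 had 13.4, 14.9 and 14.4 CPM in BrM control libraries, 21.5, 22.5 and 24.6 CPM in Tr-BrM control libraries and 8.13, 7.93 and 8.81 CPM with S100A9-inh. The Tr-BrM controls were highest and the S100A9-inh libraries lowest, without overlap (0.68 ± 0.085, adjusted p = 4.3e-08, then -1.47 ± 0.093, adjusted p = 2.9e-14). Summed over 5 astrocyte markers, PC9 libraries held 15.4 to 16.5, 97.7 to 103 and 34.2 to 37.7 CPM in the group order, nearly all of it SLC1A3, with AQP4 at 0 in both Tr-BrM groups and GFAP averaging at most 0.151 CPM. In H1650 the sums were 31.7 to 40.5, 226 to 237 and 169 to 181 CPM, with SLC1A3 at means of 23.4, 165 and 141 CPM. Of the 5 markers, all tested there, 4 rose and 1 fell in Tr-BrM control (all genes 32.2% higher and 31.7% lower). Under S100A9-inh against it none rose and 3 fell (all genes 15.4% higher and 13.8% lower). The part of these markers in the ITGB8 results was not tested. ITGB5, the β5 chain of the vitronectin receptor αvβ5, had means of 176 ± 4.2, 108 ± 1.6 and 130.5 ± 5.9 CPM in H1650, where it fell in Tr-BrM control (-0.71 ± 0.037, adjusted p = 3.5e-16), and 491 ± 7.6, 514 ± 12 and 293 ± 17 CPM in PC9, where it fell under S100A9-inh (-0.81 ± 0.039, adjusted p = 3.8e-17). ITGA4, a receptor chain for fibronectin and VCAM1, had means of 157 ± 5.5, 132 ± 2.1 and 138 ± 3.8 CPM in H1650 and of at most 0.0502 CPM in any PC9 group, in tables that were scaled separately. It fell in the H1650 Tr-BrM controls (-0.25 ± 0.035, adjusted p = 4.1e-07). ITGB3 averaged at most 0.690 CPM in H1650, shares 2266 of its 4394 exon bases with another gene on its strand, and passed in no comparison. ITGA8 had no count in any of the 9 PC9 libraries, which allows at most 3 counts in 183 M, or 0.0164 CPM.

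**Figure D4:**
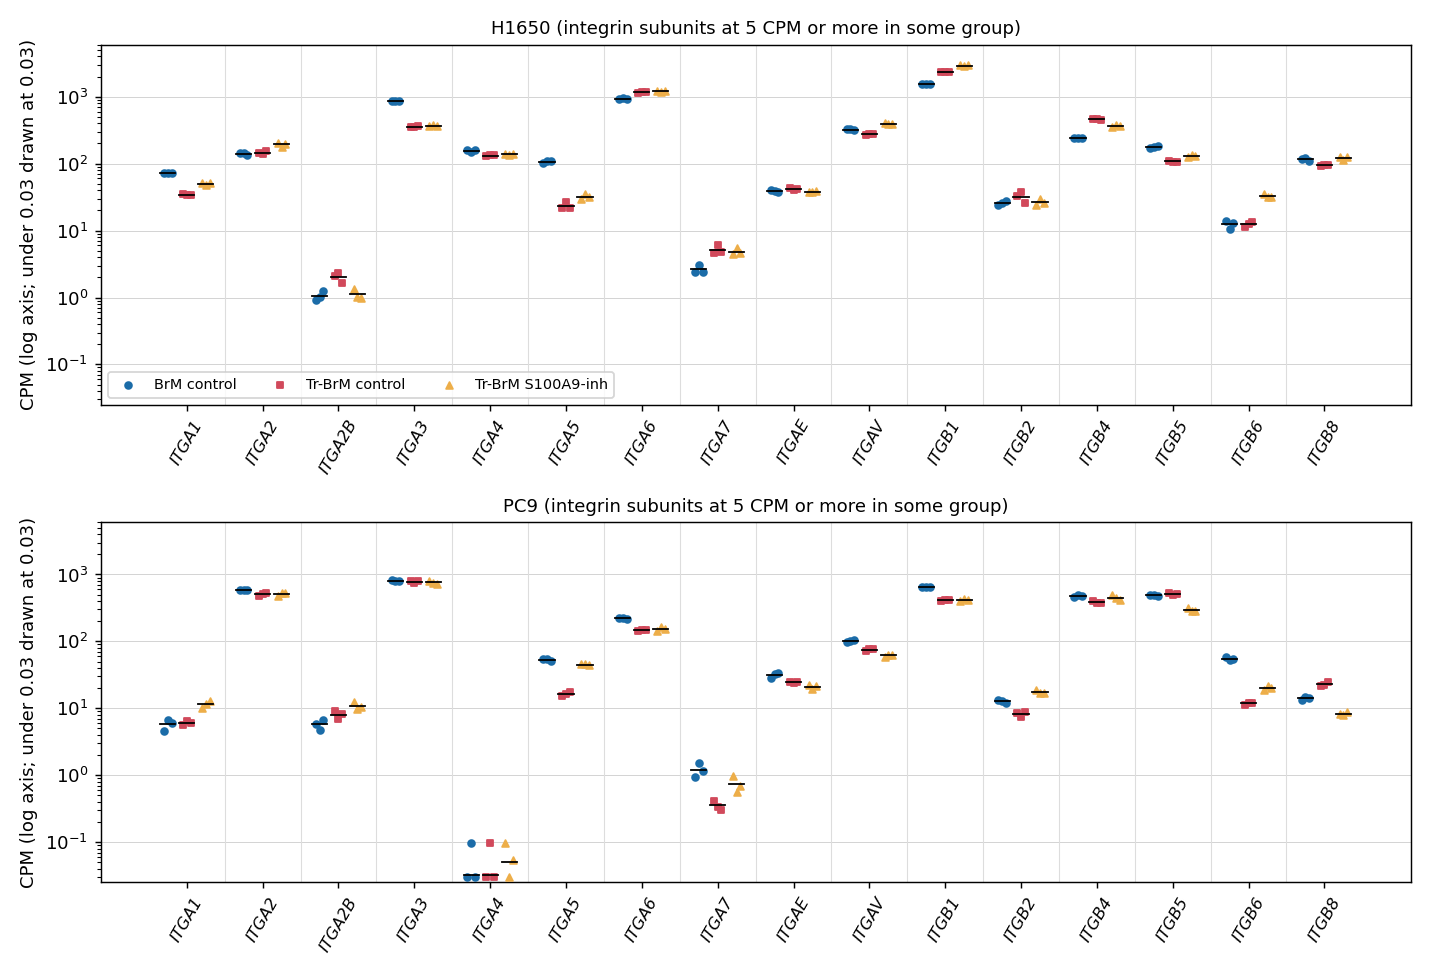
CPM of each library on a log axis for the 16 integrin subunits at 5 CPM or more in some group, H1650 above and PC9 below, with points for libraries, black bars for group means and colours for the 3 groups, and values under 0.03 drawn at 0.03. ITGB1 rises across the 3 groups of H1650 and is highest in the BrM controls of PC9, and ITGB6 has its lowest PC9 libraries, at 11.4 to 12.2 CPM, in the Tr-BrM controls.

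Of the leukocyte integrins, the α chains ITGAM, ITGAL and ITGAX averaged below 5 CPM in every group, and ITGB2 lay above that level. ITGB2, the β2 chain of that family, had 13.4, 12.8 and 12.1 CPM in BrM control libraries, 8.44, 7.39 and 8.90 CPM in Tr-BrM control libraries and 18.6, 17.2 and 17.1 CPM with S100A9-inh in PC9. The groups did not overlap, and ITGB2 fell in Tr-BrM control (-0.63 ± 0.10, adjusted p = 3.1e-06) and rose under S100A9-inh (1.10 ± 0.098, adjusted p = 7.1e-11) above BrM control (0.47 ± 0.091, adjusted p = 9.4e-05). In H1650 it ran at 24.5, 26.1 and 27.3 CPM in BrM control libraries, 33.1, 37.6 and 26.1 CPM in Tr-BrM control libraries and 24.4, 29.9 and 26.0 CPM with S100A9-inh. Its rise in Tr-BrM control (0.33 ± 0.090, adjusted p = 0.0022) was lost without replicate 2 of the Tr-BrM controls, whose 37.6 CPM was the highest of the 9. The fall under S100A9-inh (-0.28 ± 0.087, adjusted p = 0.014) was lost without that library and without replicate 1 of S100A9-inh.

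ITGAM, the αM chain of the complement receptor, rose in both lines' Tr-BrM controls from below 1 CPM. Its means were 0.515 ± 0.31, 2.75 ± 0.64 and 2.16 ± 0.62 CPM for H1650 and 0.955 ± 0.26, 4.68 ± 0.42 and 2.77 ± 0.17 CPM for PC9, with rises of 2.37 ± 0.31 (adjusted p = 1.6e-07) and 2.28 ± 0.22 (adjusted p = 1.4e-10). In PC9 it fell under S100A9-inh against Tr-BrM control (-0.76 ± 0.18, adjusted p = 7.2e-04). ITGAL and ITGAX, the αL and αX chains, were tested in H1650 only and rose in Tr-BrM control from 0.331 ± 0.16 to 1.12 ± 0.22 CPM (1.69 ± 0.41, adjusted p = 8.0e-04) and from 0.451 ± 0.083 to 1.59 ± 0.39 CPM (1.76 ± 0.31, adjusted p = 1.6e-05). Antisense genes share 415 and 204 of the 6472 exon bases of ITGAL. Summed over 13 leukocyte markers, H1650 libraries held 93.5 to 95.6, 102 to 109 and 108 to 118 CPM in the group order. CSF1R made up most of these sums, at means of 85.9, 77.5 and 96.0 CPM, lowest in the Tr-BrM controls. Of the 9 markers tested, 7 rose and 1 fell in Tr-BrM control (all genes 32.2% higher and 31.7% lower). Under S100A9-inh against it 1 rose and 4 fell (all genes 15.4% higher and 13.8% lower). PTPRC, the common leukocyte antigen, averaged 1.33 ± 0.23, 6.25 ± 0.74 and 4.39 ± 0.56 CPM in H1650, and TYROBP, a myeloid adaptor, averaged 1.281 ± 0.48, 6.77 ± 2.3 and 4.58 ± 0.69 CPM. In PC9 the sums were 30.9 to 32.1, 11.2 to 12.2 and 19.0 to 23.5 CPM, with TYROBP and MS4A1 at 0 in every group. CSF1R made up most of these sums too, at means of 30.2, 7.51 and 16.8 CPM. Of the 2 markers tested in PC9, 1 rose and 1 fell in Tr-BrM control (all genes 29.6% higher and 30.3% lower). The part of these markers in the leukocyte integrin results was not tested, and in bulk RNA fewer cells of a type and less RNA per cell cannot be told apart.

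ITGA2B, the platelet αIIb chain, rose in both lines' Tr-BrM controls, from 1.05 ± 0.17 to 2.01 ± 0.33 CPM in H1650 (0.97 ± 0.24, adjusted p = 0.0011) and from 5.76 ± 0.92 to 8.03 ± 1.1 CPM in PC9 (0.47 ± 0.14, adjusted p = 0.0038). Under S100A9-inh it fell in H1650 (-0.86 ± 0.23, adjusted p = 0.0049) and rose in PC9 (0.44 ± 0.13, adjusted p = 0.0046), the last lost without replicate 2 of the Tr-BrM controls. The 5 platelet markers summed to 0.828 to 3.19 CPM in all libraries, with GP9 and GP1BB at 0 throughout. ITGAE, the αE chain that binds E-cadherin, shares 427 of its 6657 exon bases with HASPIN on the opposite strand. ITGAE fell in the PC9 Tr-BrM controls (-0.37 ± 0.075, adjusted p = 8.5e-05), where the H1650 value was 0.10 ± 0.051 (adjusted p = 0.087) and the difference between the lines -0.47 ± 0.090 (adjusted p = 1.7e-05). ITGB7, its partner chain, averaged under 1 CPM and shares 1886 of its 4481 exon bases with ZNF740 on the opposite strand. Its PC9 fall in Tr-BrM control (-1.61 ± 0.61, adjusted p = 0.023) and rise under S100A9-inh (1.65 ± 0.61, adjusted p = 0.024) were both lost with DESeq2 and without replicate 1 of the Tr-BrM controls. ITGA8, ITGA9 and ITGAD were below the filter in both lines.

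Of the 28 subunits tested in both lines, 5 rose under S100A9-inh against Tr-BrM control in both: ITGA1, ITGA5, ITGB6, LAMA3 and LAMB3, and none fell in both. Of 14888 genes tested in both lines, 4.42% rose in both there and 3.32% fell in both. Of these, ITGA5 and LAMA3 had also fallen in both lines in Tr-BrM control. Their promoters are shown because these genes share a direction in both lines. Promoter windows, 250 bases before to 50 after a start site, were read from RefSeq sequence of GRCh38.p14 for 26 of the 38 genes. ITGA3, ITGA7, ITGA9, ITGAD, ITGAL, ITGAX, ITGB2, ITGB3, ITGB4, LAMA1 and LAMC3 were among those with no entry. The 260 bases printed here run from 250 before to 10 after the start, and capitals mark matches to the AP-1 motif TGANTCA on either strand. For LAMB3, which had 3 windows, the 1 with a match is shown.
ITGA1, chr5:52787666-52787925, forward strand: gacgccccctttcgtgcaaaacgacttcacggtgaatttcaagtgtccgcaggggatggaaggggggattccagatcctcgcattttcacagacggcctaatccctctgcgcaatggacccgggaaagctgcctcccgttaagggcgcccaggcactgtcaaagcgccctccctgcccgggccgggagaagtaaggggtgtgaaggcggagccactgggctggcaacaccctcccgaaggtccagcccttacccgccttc
ITGA5, chr12:54419257-54419516, reverse strand: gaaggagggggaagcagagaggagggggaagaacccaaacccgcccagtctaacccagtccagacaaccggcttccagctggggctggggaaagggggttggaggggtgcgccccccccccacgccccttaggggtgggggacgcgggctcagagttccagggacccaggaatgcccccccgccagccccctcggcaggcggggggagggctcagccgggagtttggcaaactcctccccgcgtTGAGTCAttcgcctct
ITGB6, chr2:160200263-160200522, reverse strand: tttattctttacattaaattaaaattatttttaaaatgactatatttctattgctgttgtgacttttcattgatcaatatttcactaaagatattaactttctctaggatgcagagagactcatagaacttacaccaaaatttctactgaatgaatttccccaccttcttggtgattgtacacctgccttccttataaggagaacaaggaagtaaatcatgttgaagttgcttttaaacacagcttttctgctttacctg
LAMA3, chr18:23872770-23873029, forward strand: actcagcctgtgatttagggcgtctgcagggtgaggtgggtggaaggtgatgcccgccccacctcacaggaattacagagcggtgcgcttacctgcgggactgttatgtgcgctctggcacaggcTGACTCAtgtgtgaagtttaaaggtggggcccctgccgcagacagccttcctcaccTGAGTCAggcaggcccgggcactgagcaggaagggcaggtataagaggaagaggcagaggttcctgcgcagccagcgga
LAMB3, chr1:209651365-209651624, reverse strand: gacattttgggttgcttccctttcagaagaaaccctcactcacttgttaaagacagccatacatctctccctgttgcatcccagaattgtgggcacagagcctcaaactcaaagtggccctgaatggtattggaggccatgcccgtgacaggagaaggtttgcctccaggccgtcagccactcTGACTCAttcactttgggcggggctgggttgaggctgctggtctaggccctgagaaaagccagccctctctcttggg

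The LAMA3 and LAMB3 windows shown are those of internal starts of the genes. The LAMA3 matches began 125 and 69 bases before the start. The LAMB3 match began 67 bases and the ITGA5 match 6 bases before it, while the ITGA1 and ITGB6 windows had none. The other LAMB3 windows, which lie nearer the annotated beginning of the gene, had no match either. The motif was present in 7.71% of 35116 promoter windows of this length and in 3 of the 33 windows of the 26 subunit genes, those of these 3. Also searched on both strands were GGAATG, bound by TEAD factors, present in 14.03% of windows and in 4 of the 33, of ITGA5, ITGA10, ITGB1 and LAMA2, and the GC box GGGCGG, present in 45.0% of windows and in 19 of the 33. The TATA box TATAAA was in 11.5% of windows and in 2 of the 33, of ITGA6 and ITGB1. These are matches of letters in 1 window per start, counted after the shared rises were known, and no test was made of them.

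The 2 lines were compared by the difference of their changes in 1 model of all 18 libraries. Of 33 subunits tested, 24 differed in Tr-BrM control against BrM control (background 54.6%), 22 under S100A9-inh against Tr-BrM control (background 40.4%) and 23 under S100A9-inh against BrM control (background 50.2%). In the first of these, 12 of the 28 subunits tested in both lines had passed in opposite directions, where 23.4% of the genes tested in both had. Among them, ITGA6, ITGA7, ITGB1, ITGB2, ITGB4, LAMA5, LAMB1 and LAMB2 rose in H1650 and fell in PC9, and ITGB8, LAMB3 and LAMC3 did the reverse. The pair ITGB1 and LAMA5 had differences of -1.24 ± 0.043 and -1.04 ± 0.052, and LAMC3 had 3.04 ± 0.30 (adjusted p = 1.3e-11). By contrast ITGA5, ITGAV and LAMA3 fell in both lines and ITGA2B, ITGAM and LAMC1 rose in both, 3 of 28 each way, where 11.3% of genes fell in both and 9.09% rose in both. For ITGAM the difference was -0.08 ± 0.39 (adjusted p = 0.90) and for LAMC1 -0.07 ± 0.048 (adjusted p = 0.20), neither past the threshold. Under S100A9-inh against Tr-BrM control, 9 of 28 subunits had passed in opposite directions, where 13% of genes had. Of these, ITGA2B, ITGB2, ITGB4, LAMA5, LAMB1 and LAMB2 fell in H1650 and rose in PC9, and ITGAV, ITGB5 and ITGB8 did the reverse. Against BrM control, the S100A9-inh groups of both lines were higher in ITGAM, LAMB3 and LAMC1 and lower in ITGA5, ITGB5, LAMA3 and LAMB2, 3 and 4 of 28, where 6.62% of genes were higher in both and 7.74% lower in both. The H1650 call of LAMB2 in that comparison was lost with scaling by library size alone. Another 9 of 28 had passed there in opposite directions, where 20.4% of genes had. For 15 subunits the gene models of the 2 tables carried different versions, so that the comparison of lines rests on changes within a line and not on levels.

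**Figure D5:**
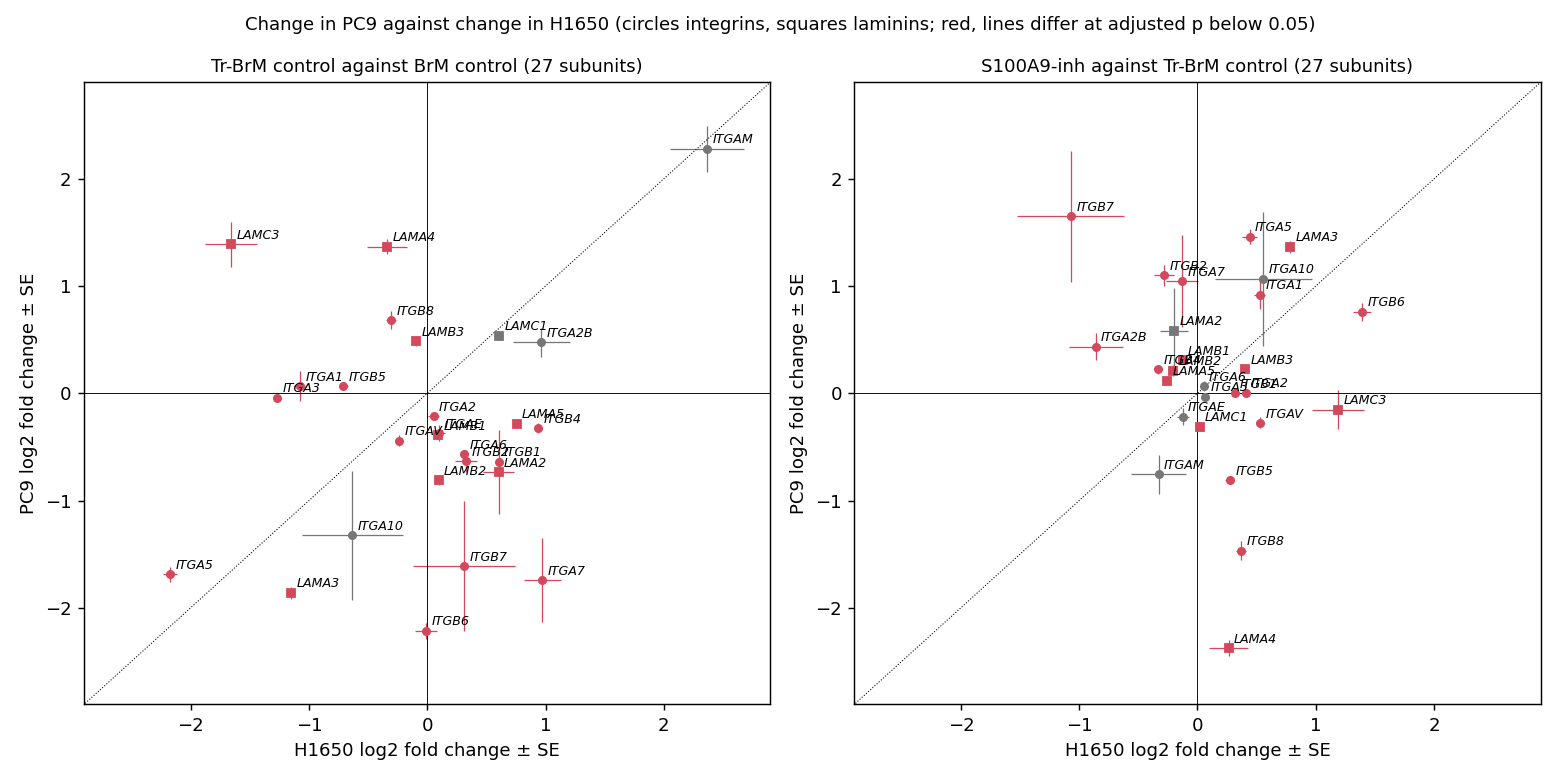
Log2 fold change ± SE in PC9 against that in H1650 for 27 subunits tested in both lines (circles integrins, squares laminins), Tr-BrM control against BrM control on the left and S100A9-inh against Tr-BrM control on the right, with red where the lines differ at an adjusted p below 0.05 and a dotted line of equal change. On the left ITGA5 and LAMA3 lie at the lower left and ITGB1 and LAMA5 at the lower right, and on the right LAMA4 is lowest at -2.38 in PC9.

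Genes of the pathway outside the subunits were grouped by function. Median absolute log2 fold changes in Tr-BrM control were 0.74 in H1650 and 0.45 in PC9 for focal adhesion genes, 0.59 and 0.38 for hemidesmosome and basement membrane partners and 1.89 and 0.61 for other ligands, against 0.38 and 0.36 over all tested genes. They were 0.51 and 0.39 for lateral partners, 0.45 and 0.48 for the latent TGF-β complex, and 0.32 and 0.26, below those of all genes, for dystroglycan and its enzymes. The shares of all tested genes that passed, against which the counts of each group are set, were 63.9% in Tr-BrM control and 29.2% under S100A9-inh against it for H1650, and 59.9% and 52.5% for PC9. Of the integrin activation and focal adhesion genes (talin, kindlins, kinases and linkers), 13 of 42 rose and 24 fell in the H1650 Tr-BrM controls (all genes 32.2% higher and 31.7% lower), and 20 rose and 4 fell under S100A9-inh against them (all genes 15.4% higher and 13.8% lower). In PC9 11 of 40 rose and 21 fell in Tr-BrM control (all genes 29.6% higher and 30.3% lower), and 15 rose and 14 fell under S100A9-inh (all genes 26.3% higher and 26.1% lower). TNS4, a tensin of focal adhesions, went from 101 ± 2.2 to 9.90 ± 0.56 CPM in the H1650 Tr-BrM controls (-3.36 ± 0.058, adjusted p = 2.3e-27). SRC, the kinase downstream of integrins, rose there (2.01 ± 0.036, adjusted p = 3.6e-27) and fell in PC9 (-0.97 ± 0.047, adjusted p = 2.7e-17). FLNA, filamin A, which ties integrins to actin, rose under S100A9-inh in H1650 from 1370.1 ± 41 to 1988 ± 33 CPM (0.54 ± 0.028, adjusted p = 1.2e-14).

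Among the other integrin ligands, 8 of 16 rose and 6 fell in the H1650 Tr-BrM controls, 87.5% passing where 63.9% of all genes did, and 11 rose and 2 fell under S100A9-inh, 81.2% against 29.2%. In PC9 4 of 13 rose and 6 fell in Tr-BrM control, 76.9% against 59.9%, and 2 rose and 9 fell under S100A9-inh, 84.6% against 52.5%. FN1, fibronectin, the ligand of integrin α5β1, averaged 825 ± 18, 2957 ± 78 and 3794 ± 62 CPM for H1650 and 11992 ± 54, 450.4 ± 9.9 and 229.8 ± 13 CPM for PC9, a rise of 1.84 ± 0.029 (adjusted p = 2.7e-28) in the first and a fall of -4.73 ± 0.038 (adjusted p = 6.5e-38) in the second. TNC, tenascin C, a ligand of αv and β1 integrins, averaged 484 ± 8.3, 97.9 ± 2.5 and 239 ± 3.3 CPM for H1650 and 140.1 ± 1.9, 15.2 ± 2.4 and 82.7 ± 3.4 CPM for PC9. It fell in both lines in Tr-BrM control (-2.30 ± 0.033, adjusted p = 2.9e-29 and -3.20 ± 0.068, adjusted p = 1.8e-26) and rose in both under S100A9-inh (1.285 ± 0.033, adjusted p = 1.8e-21 and 2.44 ± 0.070, adjusted p = 9.7e-23). SPP1, osteopontin, fell under S100A9-inh in PC9 from 163 ± 3.6 to 34.6 ± 1.2 CPM (-2.23 ± 0.048, adjusted p = 4.3e-26).

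Of the hemidesmosome and basement membrane partners, 15 of 27 rose and 10 fell in the H1650 Tr-BrM controls, 92.6% passing where 63.9% of all genes did. In those of PC9 2 of 25 rose and 19 fell, 84% against 59.9%. Under S100A9-inh against Tr-BrM control 9 rose and 7 fell in H1650, 59.3% against 29.2%, and 8 rose and 10 fell in PC9, 72% against 52.5%. COL4A2, a chain of basement membrane collagen, went from 97.7 ± 3.5 to 174 ± 0.15 CPM in H1650 (0.83 ± 0.034, adjusted p = 5.0e-17) and from 47.8 ± 2.7 to 15.6 ± 0.69 CPM in PC9 (-1.62 ± 0.066, adjusted p = 6.4e-19). COL7A1, the anchoring fibril collagen bound by the α3 laminin, fell in the PC9 Tr-BrM controls (-1.61 ± 0.042, adjusted p = 4.2e-24), as did DST, which encodes the hemidesmosome plakin BPAG1 (-1.09 ± 0.041, adjusted p = 3.2e-20). FBLN2, a fibulin that binds laminin, rose in the H1650 Tr-BrM controls (2.88 ± 0.048, adjusted p = 9.0e-28).

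The lateral partners of integrins, among them tetraspanins, had 3 of 11 genes higher and 8 lower in the H1650 Tr-BrM controls, all 11 passing where 63.9% of all genes did, and 5 of 10 higher and 3 lower in those of PC9, 80% against 59.9%. PLAUR, the urokinase receptor, fell there in H1650 (-1.59 ± 0.050, adjusted p = 2.0e-21) and rose under S100A9-inh (1.01 ± 0.050, adjusted p = 3.3e-15). In the latent TGF-β complex, the substrate of integrins αvβ6 and αvβ8, 5 of 9 genes rose and 3 fell in the H1650 Tr-BrM controls, 88.9% passing against 63.9% of all genes. In those of PC9 none of 8 rose and 5 fell, and these 62.5% lie near the 59.9% of all genes. TGFB1 fell in Tr-BrM control and rose under S100A9-inh in both lines, with means of 61.4 ± 2.5, 46.9 ± 2.6 and 68.1 ± 2.4 CPM for H1650 and 86.3 ± 3.4, 36.2 ± 1.8 and 57.0 ± 3.3 CPM for PC9. Dystroglycan and the enzymes that let it bind laminin had 6 of 14 genes higher and 4 lower in the H1650 Tr-BrM controls and 6 higher and 2 lower in those of PC9, 71.4% and 57.1% passing where 63.9% and 59.9% of all genes did, shares near the background. Under S100A9-inh 1 rose and 1 fell in H1650, 14.3% against 29.2%. In PC9 none rose and 7 fell, 50% against 52.5%, where 26.1% of all genes fell. Among the 7 was DAG1, dystroglycan itself (-0.34 ± 0.035, adjusted p = 1.6e-09).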

How the data were processed

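RNA-seq counts of reads per gene, deposited by the authors as 1 table per cell line with no normalization, were used for 9 H1650 and 9 PC9 libraries. Poly-A RNA was sequenced, per the labels' protocols. STAR, R 4.0.1, DESeq2 1.28.1 and the GRCh38 build are listed in the submitters' processing notes, while for the counting program, its annotation and strand nothing is given in the sources used here. No row lacked a gene. Groups were taken from the sample labels.

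Each line was fitted over its 9 libraries by edgeR's quasi-likelihood F test (edgeR 4.0.16, R 4.3.3, libraries scaled by TMM, low genes removed by filterByExpr on the groups, Benjamini-Hochberg adjustment over 17937 genes in H1650 and 16169 in PC9, threshold 0.05), and the difference between lines over all 18 (19076 genes). SE was the absolute log2 fold change divided by the square root of F. Tested on simulated data with 200 changed genes, the fit recovered 91.0 to 97.0% of genes changed 2-fold, and 5.10 to 5.15% of its calls were false. The simulated counts followed the spread fitted here, with as many changes up as down and far fewer than were called in the data. These rates therefore do not measure the errors among the real calls. Levels per kilobase used exon lengths of GENCODE 29, whose gene versions differ from those of the tables for some genes. At 17.4 to 27.1 M counts, counting error is small above 5 CPM and large below 1 CPM. Between replicates, chi-square per degree of freedom was 1.52 to 5.94 and no 2 libraries were identical.

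The subunits and the lists of related genes were chosen with earlier results of these data known. Values in every sample are given for subunits at 5 CPM or more with a called log2 fold change of at least 1 in a line, and for ITGB1, ITGAV, LAMC1, LAMB1 and LAMA5. Of each list of related genes, up to 3 with the smallest p in a comparison could be named. The values of 1 subunit are not reported here, though counts over the subunits include it. Alternatives were other scalings, other filters, DESeq2 1.42.0, only the 6 libraries compared, a fold threshold and leaving out each replicate.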

Additional observations from a re-analysis of the deposited data

Results flagged for a closer look

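The changes of many subunits differed between PC9 and H1650 by a test of the difference itself, edgeR's interaction term over all 18 libraries with an adjusted p below 0.05. This held for 24 of 33 subunits in Tr-BrM control against BrM control, 22 in S100A9-inh against Tr-BrM control and 23 in S100A9-inh against BrM control. The subunits given here passed in both lines in opposite directions, and each value is the PC9 minus the H1650 log2 change.

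In Tr-BrM control against BrM control, the receptor chains with a negative difference were ITGA6 -0.88, ITGA7 -2.72, ITGB1 -1.24, ITGB2 -0.96, ITGB4 -1.26, and ITGB8 had 0.98. Among the laminins, negative differences were found for LAMA5 -1.04, LAMB1 -0.49, LAMB2 -0.91, whereas the β3 and γ3 chains were positive, with LAMB3 0.58, LAMC3 3.04.

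In S100A9-inh against Tr-BrM control, the αv chain and 2 of its partners were negative, with ITGAV -0.80, ITGB5 -1.08, ITGB8 -1.84. Positive differences were found for ITGA2B 1.30, ITGB2 1.38, ITGB4 0.56 among the receptors and LAMA5 0.37, LAMB1 0.44, LAMB2 0.42 among the laminins.

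In S100A9-inh against BrM control, the receptor chains had ITGA1 1.54, ITGA2 -0.67, ITGA6 -0.87, ITGAV -1.01, ITGB1 -1.55, ITGB4 -0.70, ITGB6 -2.84, and the laminin chains LAMA5 -0.67, LAMC3 1.71. The 3 comparisons share libraries and are not independent of each other. Some of these rest on a call that at least 1 alternative other than the fold threshold removed: in Tr-BrM control against BrM control those of ITGB2, LAMB2 and LAMB3 in H1650, in S100A9-inh against Tr-BrM control that of ITGB2 in H1650 and those of ITGA2B and LAMA5 in PC9, and in S100A9-inh against BrM control that of LAMC3 in H1650 and that of ITGB4 in PC9.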

How the results depend on the processing

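No subunit change that passed in the main fit or in an alternative had opposite signs in the 2 fits. Changes of sign among results that passed in neither were not counted. Of 282 subunit results (each tested subunit in each comparison), 20 lost and 20 gained a call under at least 1 alternative other than the fold threshold. A called subunit that an alternative left untested was not counted as a loss. With a log2 fold change of at least 1 also required, 9, 2 and 7 subunits were called in H1650 (Tr-BrM control against BrM control, S100A9-inh against Tr-BrM control, S100A9-inh against BrM control) and 8, 7 and 4 in PC9. Over all genes that rule left 3690, 366 and 3505 calls of 11469, 5230 and 11416 in H1650 and 2053, 1263 and 1197 of 9684, 8487 and 7489 in PC9. By construction it removes small changes. Leaving out 1 replicate gave 25 to 27, 18 to 19 and 22 to 24 subunits in H1650, 22 to 23, 17 to 21 and 21 to 24 in PC9, and 23 to 26, 21 to 23 and 21 to 24 for the difference between lines. Library size alone moved the share of higher genes in H1650 S100A9-inh against Tr-BrM control from 52.8 to 40.8%, and the cause was not tested. No paired analysis was possible because the labels give no replicate numbers shared between groups. Levels under 1 CPM, such as those of ITGB7, ITGA10, H1650 ITGB3 and, in the Tr-BrM groups, PC9 ITGA7, and those of ITGAL, ITGAM and ITGAX in the H1650 BrM controls, rest on few counts.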

Other observations

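Of the listed partner genes not named above, some were nearly absent from the H1650 BrM controls. FREM2, a basement membrane protein of epithelia, averaged 0.310 ± 0.046, 49.4 ± 1.7 and 30.8 ± 2.2 CPM in H1650 (BrM control, Tr-BrM control and S100A9-inh, mean ± SD, n = 3). EDIL3, a ligand of αv integrins, averaged 0.120 ± 0.10, 22.2 ± 1.3 and 35.3 ± 0.14 CPM. CCN1, a matricellular ligand of αv integrins, rose under S100A9-inh in H1650 (1.32 ± 0.029, adjusted p = 6.7e-23), as did THBS1, thrombospondin (0.84 ± 0.030, adjusted p = 4.4e-18), and THBS1 fell in PC9 (-1.12 ± 0.036, adjusted p = 1.8e-21).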
